A study of Homo sapiens with 60 samples.

Results

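This account covers 39 genes of the interferon response and MHC class I antigen presentation, taken from a named list that holds IFIT1 as its marker gene, out of 60675 genes in the deposited table. All 39 were found in the table by symbol, and the list's rule uses no measured value. They were followed in A549 cells, an established human lung adenocarcinoma line, after 24 h with hot-water plant extracts, by directional RNA sequencing of bulk RNA. The 60 libraries were made of 7 extracts at 20, 100 and 500 µg/mL and a vehicle group with DMSO.

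The extract groups were cells given Menthae Herba or Saposhnikoviae Radix, which are single herbs, and cells given Saengmaek-san, Guibi-tang, Soyo-san or Okbyeongpung-san, which are multi-herb decoctions, each with 3 libraries per dose. Soshiho-tang, another decoction, had 1 library per dose and no replicate. The vehicle group had 3 libraries, and the sample labels gave its DMSO as 0.1% while the series text gave 2%. The series text also stated that extracts with a low 20% inhibitory concentration were given at that concentration and its dilutions, whereas the labels printed 500, 100 and 20 for each extract. The labels name no agent other than the extract and its vehicle, and no interferon or virus. Whether replicates are separate cultures is not stated there, and the p-values below reflect the spread among libraries alone, which may be technical. A wortmannin control and ethanol extracts were not analysed here. As A549 is 1 tumour line with no immune or stromal partner cells, the values describe that line in culture.

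Interferons are secreted proteins that bind receptors on the cell surface and activate the kinases JAK1, JAK2 and TYK2, which phosphorylate transcription factors of the STAT family. A complex that holds STAT2 and IRF9 binds the interferon-stimulated response element (ISRE), and the gamma-activated site (GAS) is the element of the interferon gamma response. The target genes encode proteins that sense or block viral RNA, the ubiquitin-like modifier ISG15 with its conjugation enzymes, and the immunoproteasome, TAP transporter and MHC class I molecules that carry peptides to the surface for T cells. In lung epithelium this programme is known for defence against respiratory viruses, and IFIT1 is one of its most used reporters.

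The promoters show which of these genes carry the letters of the elements. RefSeq promoter windows of GRCh38.p14, each from 250 bases before the start to just after it, were available for 33 members in 43 windows. Only the 250 bases before the start were searched. The ISRE letters, GAAA followed by any 2 bases and a further GAAA, read on both strands, were in 23 of the 43 windows (53.5%), against 1061 of 35116 windows of all genes (3.02%). The GAS letters TTCNNNGAA were in 11 of the 43 windows (25.6%), against 6.57% of all windows, and an ISRE and a GAS match may share bases. A match is a description of letters, not a site. IFITM2, OAS2, IFIT2, TRIM22, OASL and IRF7 had no window.

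Stretches of the promoters of the marker, of 3 further genes with paired ISRE letters and of 5 of the 7 genes called in any comparison below are shown 5′ to 3′ along each gene's own strand, with matched letters in capitals. The IFIT1 stretch is chr10:89392495-89392541 (+), ISG15 is chr1:1013372-1013411 (+), B2M is chr15:44711361-44711400 (+) and TAP1 is chr6:32853811-32853850 (-). The ISG20 stretch is chr15:88638935-88638968 (+), IFI35 is chr17:43006750-43006782 (+), PSMB8 is chr6:32844092-32844124 (-), PARP9 is chr3:122564320-122564353 (-) and UBE2L6 is chr11:57567936-57568015 (-).
IFIT1: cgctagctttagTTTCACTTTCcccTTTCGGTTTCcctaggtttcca
ISG15: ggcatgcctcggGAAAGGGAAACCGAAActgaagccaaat
B2M: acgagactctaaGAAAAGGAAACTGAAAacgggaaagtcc
TAP1: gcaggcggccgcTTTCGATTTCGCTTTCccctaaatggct
ISG20: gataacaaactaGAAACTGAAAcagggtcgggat
PARP9: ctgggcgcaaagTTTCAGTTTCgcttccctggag
IFI35: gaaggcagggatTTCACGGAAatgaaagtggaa
PSMB8: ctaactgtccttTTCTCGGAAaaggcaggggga
UBE2L6: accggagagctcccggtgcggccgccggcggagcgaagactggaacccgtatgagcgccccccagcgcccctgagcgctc
The first 6 hold ISRE letters, the next 2 hold GAS letters, and the searched bases of the UBE2L6 window held neither. This says only that these letters are not in those bases.

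The libraries held 18330592 to 35308791 counts, and values are given as CPM, counts scaled to a common library total. The epithelial markers EPCAM, KRT8, KRT18, KRT19 and CDH1 summed to 5021 to 6332 CPM in extract libraries and 6211 to 6450 CPM in vehicle libraries, while 4 of 6 immune markers were under 1 CPM in each library and 3 of 3 endothelial markers were too. Of 3 fibroblast markers, DCN and PDGFRA were under 1 CPM in each library, and the list summed to 26.4 to 41.1 CPM in extract libraries and 27.0 to 30.7 CPM in vehicle libraries. In the order of the library names a step followed the 31st library, with 29 libraries after it. A fit with group and step used the 57 libraries without Soshiho-tang. Its step term had an adjusted p under 0.05 in 43.7% of the 17256 genes tested (edgeR quasi-likelihood test). That term rests on Saengmaek-san and Guibi-tang, whose groups have libraries on both sides. The mitochondrial share of counts was 12.9% to 22.2% after the step and 10.7% to 13.9% before it, and the labels name no change there. All vehicle and herb libraries came before the step, all Soyo-san, Okbyeongpung-san and Soshiho-tang libraries after it, and Saengmaek-san and Guibi-tang libraries on both sides. Comparisons of Soyo-san or Okbyeongpung-san with vehicle therefore span the step, and only a term estimated from Saengmaek-san and Guibi-tang separates the step from the extract. Comparisons of 500 with 20 µg/mL within the herbs, Soyo-san and Okbyeongpung-san lie on 1 side of it.

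Members that were called under an extract changed little. A gene was called when edgeR's quasi-likelihood test across 17256 genes gave a Benjamini-Hochberg adjusted p under 0.05. Of the 39 members, 33 had enough counts to be tested, and 26 of these 33 were called in none of 24 comparisons, made of 18 of a dose with vehicle and 6 of 500 with 20 µg/mL. The 12 calls, of which 8 were rises and 4 were falls, fell on 7 genes in 5 comparisons. The share of all genes called in any of the 24 comparisons is not given, so these counts have no matching baseline. The largest called change was 1.39-fold, in IFI35. In bulk RNA, fewer cells making a transcript and less transcript per cell cannot be told apart.

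**Figure D1:**
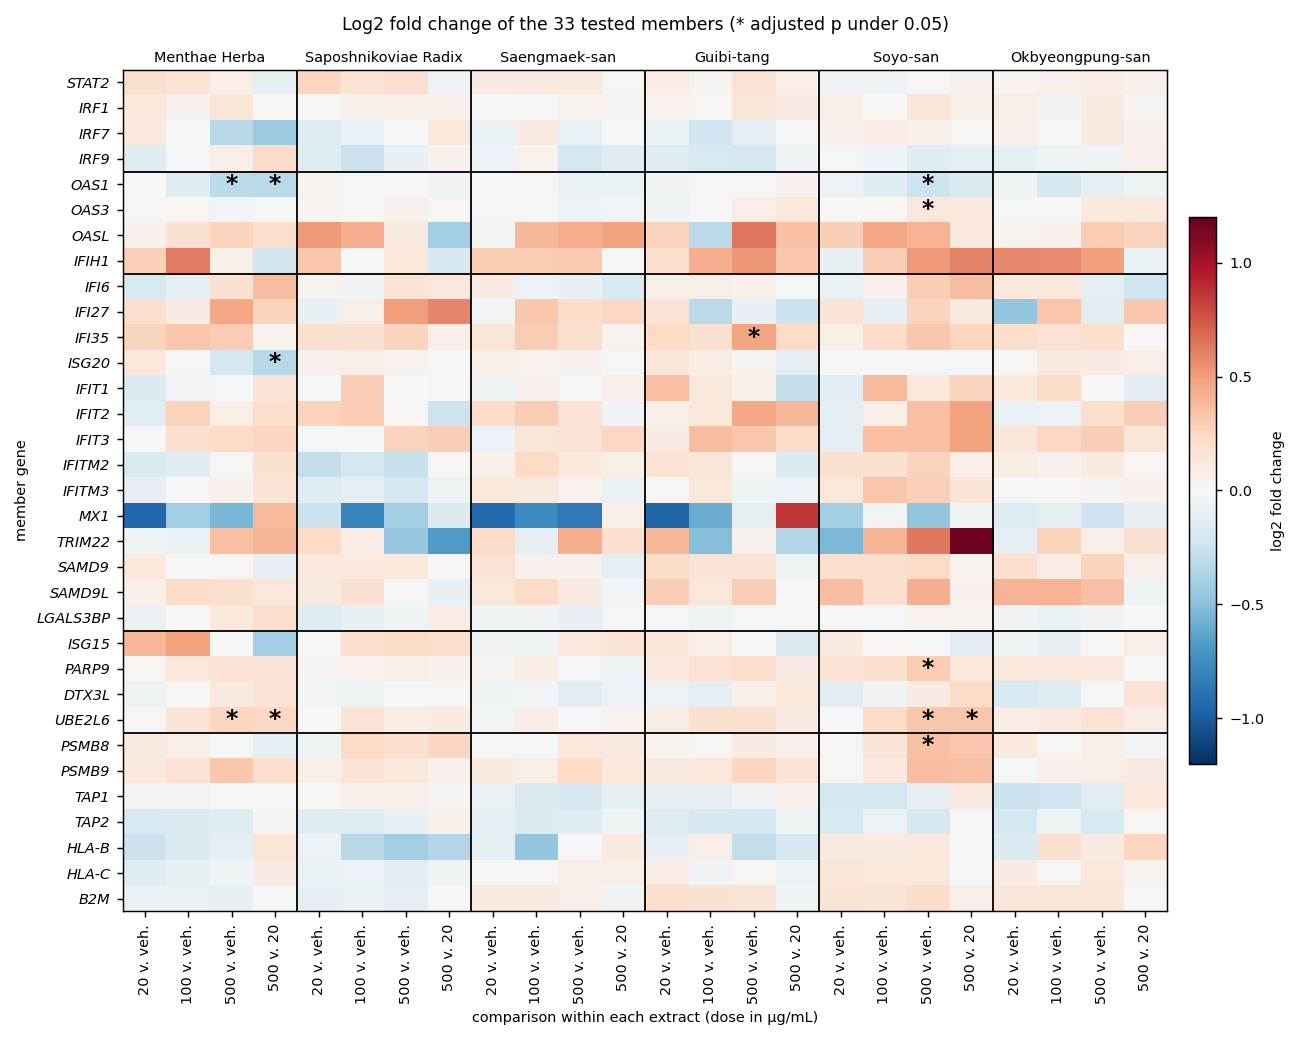
Log2 fold change (colour) of the 33 tested members (vertical axis, ordered by role) in 24 comparisons (horizontal axis, 4 per extract), with called genes starred. The 12 stars stand in 5 columns, those of Menthae Herba, Guibi-tang and Soyo-san at 500 against vehicle and those of Menthae Herba and Soyo-san at 500 against 20, and the deepest colours without a star belong to genes of under 1 CPM such as MX1 and TRIM22.

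The 6 members below the count filter were nearly silent. IFI44L, a paralogue of IFI44 used in blood interferon scores, had 0 counts in 54 of 60 libraries and at most 2, and IFI44 had 0 in 42 libraries and at most 2. XAF1, a pro-apoptotic interferon target, had 0 in 56 libraries and at most 1. BST2, the tether that holds budding virus at the cell surface, had at most 5 counts and OAS2, a synthase of the RNase L activator, had at most 6. IFITM1, which restricts virus entry, had 0 to 10 counts with a median of 3, and it overlaps IFITM2 in the annotation.

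IFIT1, which binds viral RNA that lacks a host cap, was detected in each library and was called in none of the 24 comparisons. Over the 18 extract groups the libraries lay between 1.13 CPM, in Menthae Herba at 500, and 2.38 CPM, in Soyo-san at 100, against 1.21, 1.53 and 2.12 CPM in the vehicle libraries. Ordered by mean the groups ran only between 1.43 ± 0.12 CPM in Soyo-san at 20 and 2.08 ± 0.29 CPM in Soyo-san at 100 (SD, n = 3 each), and the vehicle mean of 1.62 ± 0.46 CPM lay among them, so most neighbours in that order did not differ beyond their spread. Its fitted log2 fold changes lay between -0.28 and 0.39, with adjusted p of 0.32 to 1.0 by edgeR's quasi-likelihood test. The 95% interval of a single comparison had a median half-width of 0.40, which limits the change that could be detected at this depth.

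**Figure D2:**
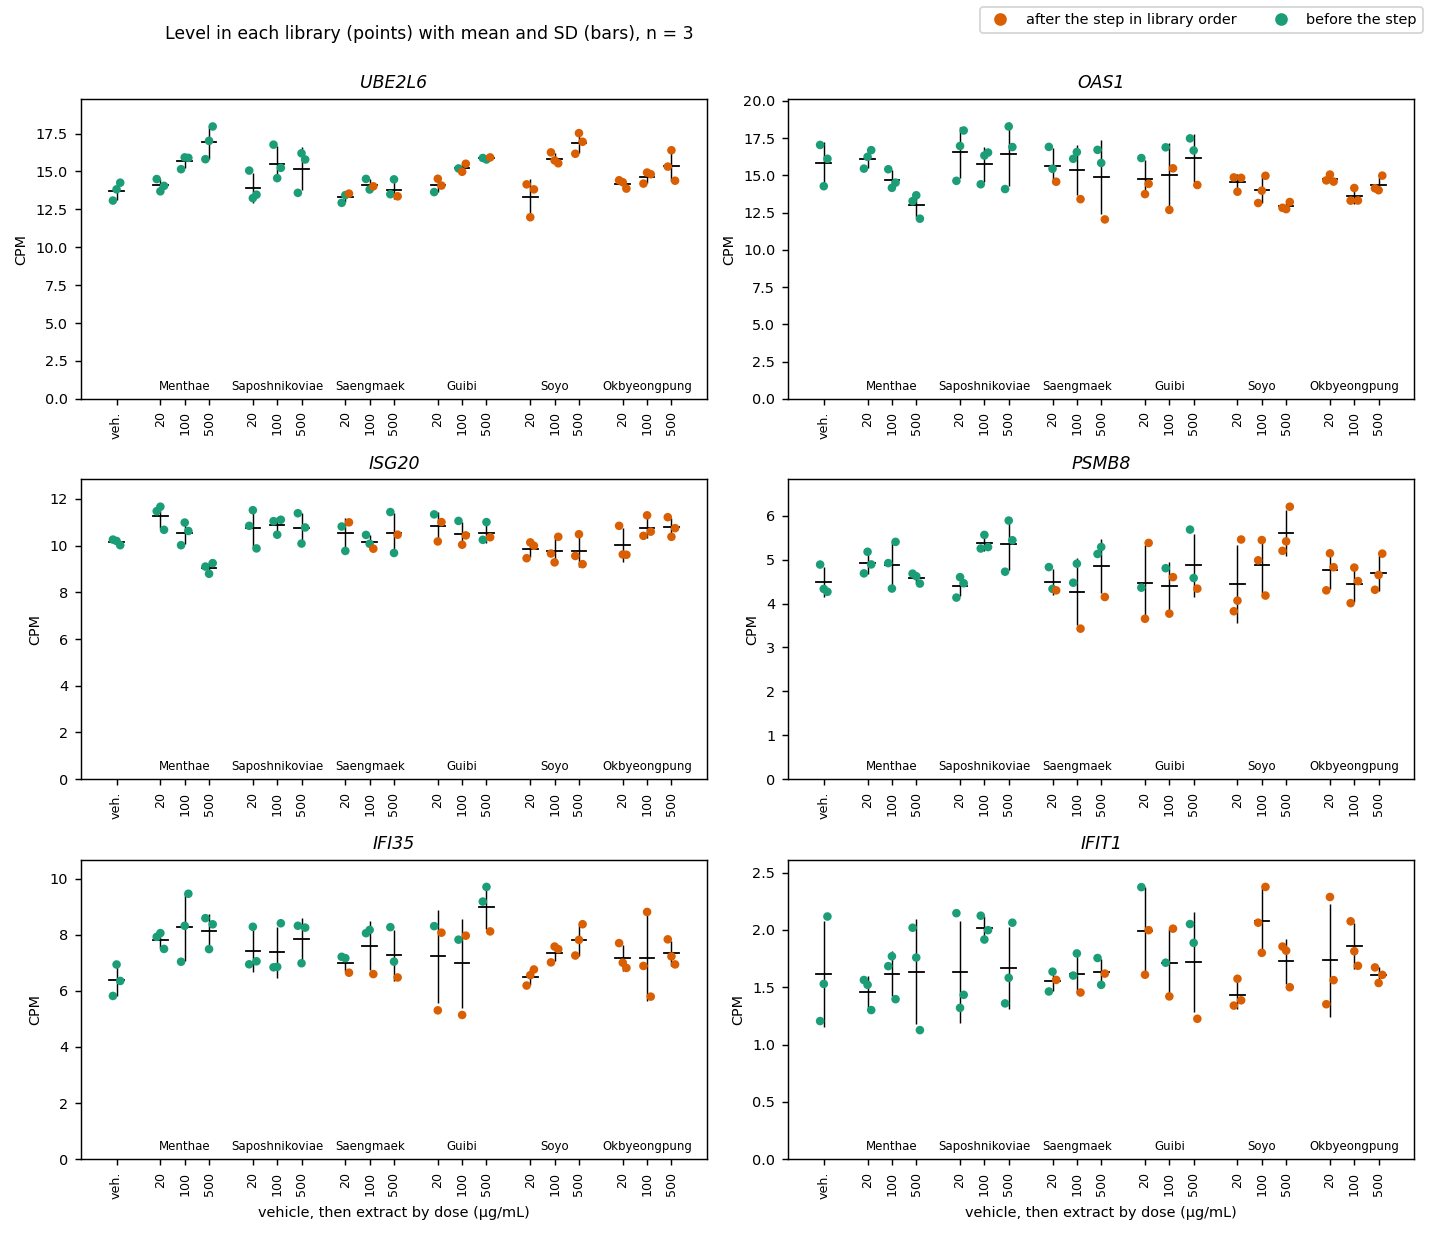
CPM of 6 members (vertical axes) in each library of the vehicle and of 6 extracts by dose (horizontal axes), as points with mean and SD bars (n = 3), coloured by their side of the step in library order. UBE2L6 is highest at 500 in Menthae Herba and Soyo-san, with means of 16.9 CPM in each against 13.7 CPM in vehicle, while the IFIT1 points of all libraries lie between 1.13 and 2.38 CPM.

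The ISG15 conjugation genes gave the most repeated change, through UBE2L6, the E2 enzyme that passes ISG15 on to its targets. With Menthae Herba at 500 µg/mL it had 15.8, 17.0 and 17.97 CPM, against 13.1, 13.8 and 14.3 CPM in vehicle. The groups did not overlap, and each treated library lay above each vehicle library. UBE2L6 rose by 0.26 ± 0.07 on the log2 scale (SE, edgeR quasi-likelihood test, adjusted p = 0.0131). The call was lost without vehicle replicate 1 (adjusted p = 0.084, edgeR) and without Menthae Herba 500 replicate 2 (0.0596) or 3 (0.0869), and without the filter on low counts (0.0602). Against the 20 µg/mL libraries of the same herb, at 14.5, 13.7 and 14.1 CPM, it rose by 0.25 ± 0.07 (edgeR adjusted p = 0.0433). That smaller call was also missed by DESeq2 (adjusted p = 0.0546) and without the filter (0.19), and it was lost when any of 5 of the 6 libraries was left out (edgeR adjusted p of 0.0786 to 0.245), all but Menthae Herba 500 replicate 1.

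Soyo-san at 500 gave UBE2L6 16.2, 17.5 and 17.0 CPM, against 14.2, 11.98 and 13.8 CPM at 20. These groups did not overlap, and all 6 libraries lie after the step. The rise of 0.33 ± 0.07 (edgeR adjusted p = 0.00676) was lost without Soyo-san 500 replicate 2 (adjusted p = 0.0524) or 20 replicate 2 (0.0972). Against vehicle the rise was also 0.33 ± 0.07 (edgeR adjusted p = 0.00114), and it held when each of the 6 libraries was left out. With a term for the step it was 0.20 (edgeR adjusted p = 0.0614), and UBE2L6 itself was higher after the step by 0.14.

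By dose the mean of UBE2L6 was 14.1, 15.7 and 16.9 CPM at 20, 100 and 500 µg/mL of Menthae Herba. It was 13.3, 15.8 and 16.9 CPM at the same doses of Soyo-san, and 14.1, 15.2 and 15.9 CPM with Guibi-tang. At 500, all 3 Guibi-tang libraries (15.9, 15.8 and 15.9 CPM) and all 3 Okbyeongpung-san libraries (15.3, 16.4 and 14.4 CPM) also lay above each vehicle library. Neither was called, with log2 fold changes of 0.19 (edgeR adjusted p = 0.12) and 0.18 (0.156). Saengmaek-san at 500, at 13.5, 14.5 and 13.4 CPM, overlapped vehicle with a log2 fold change of 0.01, and so did Saposhnikoviae Radix, with 0.09.

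PARP9, an ADP-ribosyltransferase that works with the E3 ligase DTX3L in the interferon response, had 13.6, 12.5 and 13.04 CPM with Soyo-san at 500, against 10.5, 11.2 and 10.7 CPM in vehicle. The groups did not overlap. It rose by 0.31 ± 0.08 on the log2 scale (edgeR adjusted p = 0.0191). The call was lost without vehicle replicate 1 (adjusted p = 0.0796) or 3 (0.0673), without Soyo-san 500 replicate 1 (0.143) and with the step term (log2 fold change 0.26, adjusted p = 0.0784). PARP9 and DTX3L overlap head to head in the annotation and the strand setting of the counting is not given in the sources used here, so reads in the overlap may belong to either. ISG15 itself, at 0.82 ± 0.20 CPM in vehicle (SD, n = 3), was not called in any of the 24 comparisons.

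Among the oligoadenylate synthases, which make the activator of RNase L upon sensing double-stranded RNA, OAS1 was lower with Menthae Herba and Soyo-san. OAS1 had 13.3, 13.7 and 12.1 CPM with Menthae Herba at 500, against 17.0, 14.3 and 16.1 CPM in vehicle. The groups did not overlap, although the highest treated and lowest vehicle libraries were close. The change was -0.32 ± 0.08 on the log2 scale (edgeR adjusted p = 0.00847), lost without vehicle replicate 1 (adjusted p = 0.0761) or Menthae Herba 500 replicate 3 (0.0826). By dose OAS1 averaged 16.1 ± 0.63, 14.7 ± 0.65 and 13.01 ± 0.82 CPM at 20, 100 and 500 µg/mL (SD, n = 3 each). Against the 20 µg/mL libraries, at 15.5, 16.2 and 16.7 CPM, OAS1 fell by 0.32 ± 0.08 (edgeR adjusted p = 0.0151). That call was lost without Menthae Herba 500 replicate 1 (adjusted p = 0.0565) or 3 (0.153) and without 20 replicate 2 (0.0744) or 3 (0.0895).

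With Soyo-san at 500, OAS1 had 12.8, 12.7 and 13.2 CPM, each below the vehicle libraries. The change of -0.25 ± 0.08 (edgeR adjusted p = 0.0455) was -0.12 (adjusted p = 0.418) with the step term, and OAS1 itself was lower after the step by 0.13. The call was also lost without vehicle replicate 1 (adjusted p = 0.204) or 3 (0.15) and without Soyo-san 500 replicate 1 (0.0843), 2 (0.155) or 3 (0.1), and without the filter on low counts (0.0517). In the other 4 extracts at 500, OAS1 overlapped vehicle, with log2 fold changes of -0.12 to 0.02. OAS3, the family member that binds long RNA, rose by 0.13 ± 0.04 with Soyo-san at 500 (edgeR adjusted p = 0.0455) at 97.4, 109.1 and 109.8 CPM, against 96.8, 97.1 and 101.5 CPM in vehicle. These groups overlapped, OAS3 was named after its values were seen, and the call was lost without vehicle replicate 1 (0.169) or 2 (0.145) or Soyo-san 500 replicate 2 (0.135) or 3 (0.16), and without the filter (0.287). The helicase sensor IFIH1 and the synthase-like OASL stood under 1 CPM in vehicle and were not called.

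Of the antiviral effectors, IFI35 and ISG20 were called once each. IFI35, a partner of NMI, had 9.18, 9.70 and 8.12 CPM with Guibi-tang at 500, against 5.82, 6.94 and 6.35 CPM in vehicle. The groups did not overlap. IFI35 rose by 0.48 ± 0.12 on the log2 scale (edgeR adjusted p = 0.00954). The call was lost without vehicle replicate 1 (adjusted p = 0.0738) or Guibi-tang 500 replicate 2 (0.0627), and it was kept with the step term (0.51, adjusted p = 0.00212). Guibi-tang at 20 gave 8.31, 5.31 and 8.07 CPM and at 100 gave 7.82, 5.14 and 7.97 CPM, and both groups overlapped vehicle. At 500 IFI35 also lay above all vehicle libraries with Menthae Herba (0.31), Saposhnikoviae Radix (0.26), Soyo-san (0.33) and Okbyeongpung-san (0.21). These log2 fold changes were not called. The vehicle group was low: its highest library, at 6.94 CPM, was below the IFI35 medians of 7.92 CPM before the step and 7.02 CPM after it. With libraries before the step alone, IFI35 was 0.31 with Menthae Herba at 500 and 0.33 at 100 against vehicle. IFI35 was not called at 500 against 20 in any extract.

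ISG20, an exonuclease that degrades single-stranded RNA, had 9.11, 8.80 and 9.25 CPM with Menthae Herba at 500, against 11.5, 11.7 and 10.7 CPM at 20 µg/mL. The groups did not overlap, and vehicle stood between them at 10.3, 10.2 and 10.0 CPM. ISG20 fell by 0.34 ± 0.07 on the log2 scale between 500 and 20 (edgeR adjusted p = 0.00194), and the call held when each of the 6 libraries was left out. Against vehicle the change was -0.21 (edgeR adjusted p = 0.0603). MX1, the dynamin-like GTPase that traps virus components, was under 1 CPM in vehicle and its largest fitted change at 500, -0.86 with Saengmaek-san, was not called (adjusted p = 0.322). TRIM22, an antiviral ubiquitin ligase, was likewise under 1 CPM and reached 0.63 with Soyo-san at 500 (adjusted p = 0.239).

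Among the genes of MHC class I and peptide supply, only PSMB8 was called. PSMB8 is a catalytic subunit that replaces its constitutive counterpart in the immunoproteasome. It had 5.20, 5.42 and 6.21 CPM with Soyo-san at 500, against 4.89, 4.33 and 4.27 CPM in vehicle. The groups did not overlap, with a gap of under 1 CPM. It rose by 0.35 ± 0.11 on the log2 scale (edgeR adjusted p = 0.0485), a call that DESeq2 did not make (adjusted p = 0.0583) and that was lost without the filter (0.131). It was also lost without any 1 of the 6 libraries (edgeR adjusted p of 0.0541 to 0.19), and with the step term it was kept (0.43, adjusted p = 0.0287).

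PSMB9, its partner subunit, had 4.84, 4.99 and 4.58 CPM with Soyo-san at 500, against 4.06, 3.91 and 3.44 CPM in vehicle. These groups did not overlap, and the log2 fold change of 0.37 just missed the threshold (edgeR adjusted p = 0.0509). PSMB8, PSMB9 and TAP1 lie together and overlap in part in the annotation. HLA-B and HLA-C, the class I heavy chains in the list, were not called in any of the 24 comparisons, and as near-identical paralogues their reads may be split between them. B2M, the light chain shared by class I molecules, was 128.2, 125.3 and 122.4 CPM with Soyo-san at 500, against 111.8, 113.4 and 105.3 CPM in vehicle. The libraries did not overlap, yet the log2 fold change of 0.22 was not called (edgeR adjusted p = 0.25). Without the filter on low counts it was 0.22 and called (adjusted p = 0.00641), and with the step term it was -0.17 (adjusted p = 0.0871). B2M itself was higher after the step by 0.39. With Okbyeongpung-san at 500 its log2 fold change was 0.14 (edgeR adjusted p = 0.554), and with the step term -0.25 (0.00826).

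**Figure D3:**
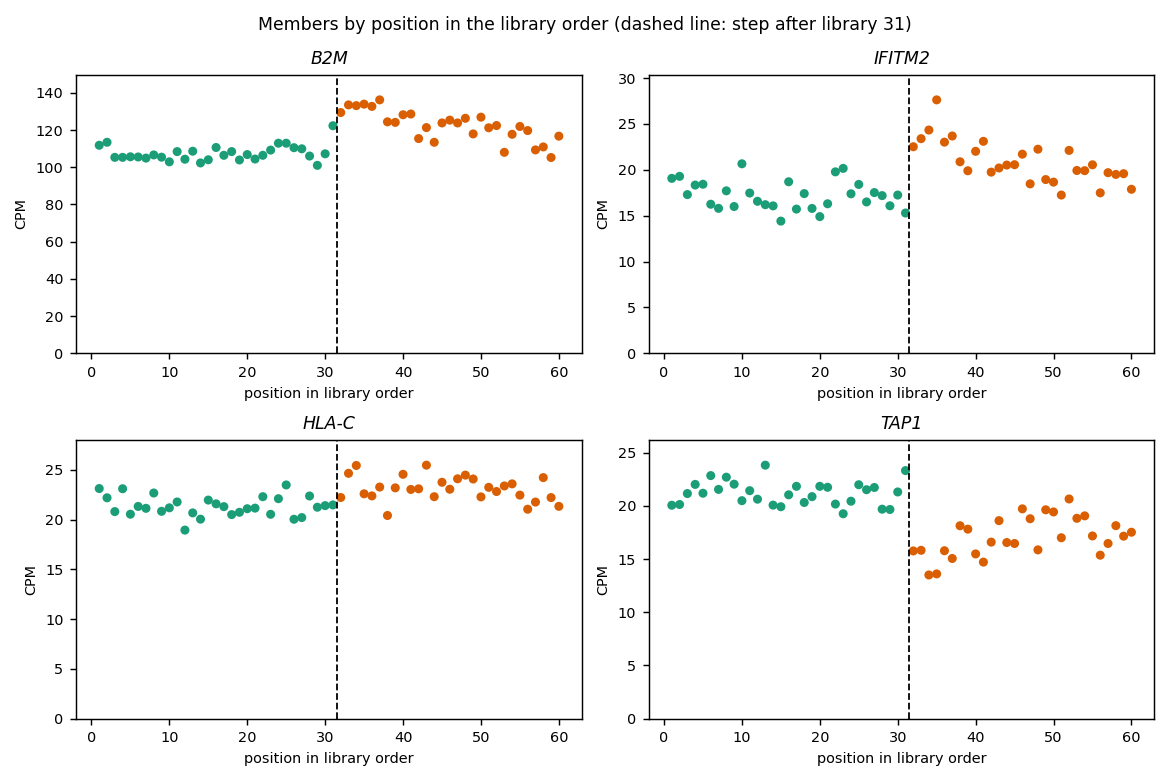
CPM of 4 members (vertical axes) against the position of each library in the order of library names (horizontal axes), with a dashed line at the step after library 31. B2M, IFITM2 and HLA-C have higher medians after the step (124, 20.5 and 23.1 CPM) than before it (106, 17.2 and 21.2 CPM), and TAP1 a lower one (17.0 against 21.2 CPM).

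Members also differed across the step. In a fit with group and step, which rests on the Saengmaek-san and Guibi-tang groups that have libraries on both sides, 8 of 33 members were higher and 5 were lower after the step, beside the 43.7% of all genes (edgeR, adjusted p under 0.05). IFITM2, which restricts virus entry from endosomes, was higher by 0.57, IFITM3 by 0.31, HLA-C by 0.25, IRF9 by 0.21, SAMD9 by 0.20 and LGALS3BP by 0.12, beside B2M and UBE2L6. MX1 changed by -0.61, TAP1, a subunit of the peptide transporter, by -0.33, STAT2 by -0.11 and DTX3L by -0.11, beside OAS1. These are fitted changes, and CPM medians over all libraries did not follow each of them. After the step against before it, the medians were 7.48 and 7.64 CPM for IRF9 and 53.9 and 55.5 CPM for LGALS3BP. UBE2L6 had 14.52 and 14.51 CPM, nearly the same. MX1 had 0.57 and 0.61 CPM, lower as in the fit but by less. The medians of the other members named here moved in the fitted direction. IFITM2 and IFITM3 are near-identical, so reads may be split between them.

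Counts of members called are read here against the share of all 17256 genes called in the same comparison. Menthae Herba at 500 against vehicle called 2 of 33 members and 6.77% of all genes. Guibi-tang at 500 called 1 and 4.42%, and Soyo-san at 500 called 5 and 6.03%, of which 4 were rises. The share of members was near that of all genes for Menthae Herba and Guibi-tang. For 500 against 20, Menthae Herba called 3 members and 2.43% of genes, and Soyo-san called 1 and 0.614%. With the step term, Soyo-san at 500 called 5 members and 11.7% of genes: IFI35, OAS3, DTX3L and PSMB8 higher and IRF9 lower. Okbyeongpung-san at 500 with the same term called 3 members and 12.5% of genes, which were OAS3 higher and B2M and IFITM2 lower. With libraries before the step alone, Menthae Herba at 500 called 4 members and 15.8% of genes, adding IFI35 and PSMB9 as higher to OAS1 and UBE2L6. Guibi-tang at 500 then called 2 members and 11.2% of genes, IFI35 higher and the transporter subunit TAP2 lower.

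In the other 19 of the 24 comparisons edgeR called 0 members, and so did DESeq2. At 500 against vehicle the share of all genes called was 1.56% for Saposhnikoviae Radix, 0.614% for Saengmaek-san and 3.39% for Okbyeongpung-san, and 3, 1 and 5 members had an unadjusted edgeR p under 0.05. At 100 against vehicle the shares were 0.974% for Menthae Herba, 0.666% for Saposhnikoviae Radix, 0.666% for Saengmaek-san, 1.41% for Guibi-tang, 1.77% for Soyo-san and 1.37% for Okbyeongpung-san. The members with an unadjusted p under 0.05 at that dose numbered 5, 6, 4, 4, 3 and 4 in the same order. At 20 against vehicle the shares were 0.382%, 0.991%, 0.452%, 1.35%, 1.99% and 1.09% in that order of extracts, with 4, 2, 1, 3, 4 and 4 such members. For 500 against 20 they were 0.0811% for Saposhnikoviae Radix, 0.0% for Saengmaek-san, 0.997% for Guibi-tang and 0.0985% for Okbyeongpung-san, with 2, 0, 3 and 2 such members. All these shares are at adjusted p under 0.05. The share of all genes at unadjusted p under 0.05 is not given, so the unadjusted member counts cannot be set against it.

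The median log2 fold change of the 33 tested members at 500 against vehicle was 0.07 for Menthae Herba, 0.04 for Saposhnikoviae Radix, 0.05 for Saengmaek-san, 0.06 for Guibi-tang, 0.22 for Soyo-san and 0.10 for Okbyeongpung-san. The median of all genes was between 0.00 and 0.01 in each. Members with a positive change numbered 21, 19, 21, 23, 26 and 24 of 33 in that order. In Soyo-san the median was 0.28 over the 14 antiviral effectors tested and 0.27 over the 4 RNA sensing and OAS genes. It was 0.20 over the 4 ISG15 conjugation genes, 0.13 over the 7 MHC class I genes and 0.03 over the 4 transcription factors. The 4 RNA sensing and OAS genes were OAS1 at -0.25, OAS3 at 0.13, IFIH1 and OASL. IFIH1 and OASL averaged 0.65 and 0.46 CPM in vehicle, with median interval half-widths of 0.59 and 0.82 log2 units. Among the antiviral effectors IFI27, IFIT2, MX1 and TRIM22 also averaged under 1 CPM in vehicle, with half-widths of 0.52 to 0.75. Among the ISG15 conjugation genes, ISG15 averaged 0.82 CPM in vehicle, with a half-width of 0.54. The medians of these lists thus include imprecisely measured genes, and none is given without them. The comparison of Soyo-san at 500 with vehicle spans the step, and 500 against 20 within Soyo-san, which does not, gave a member median of 0.11.

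The dose change was also set between pairs of extracts that share a library set number, as the difference of the log2 changes from 20 to 500 µg/mL. In none of the 3 pairs did edgeR or DESeq2 call a member, beside 0.197% of all genes for Menthae Herba minus Saposhnikoviae Radix, 0.296% for Guibi-tang minus Saengmaek-san and 0.029% for Soyo-san minus Okbyeongpung-san. Unadjusted p values of members under 0.05 numbered 6, 2 and 3, and the matching share of all genes is not given. ISG20 differed by -0.33 (95% interval -0.53 to -0.13, edgeR adjusted p = 0.265) in the first pair. UBE2L6 differed by 0.25 (0.04 to 0.45, adjusted p = 0.95) in the third. A miss of the threshold does not show that the extracts act alike. Guibi-tang 500 replicate 2 lies before the step and Guibi-tang 20 replicate 2 after it. The Guibi-tang dose change, and so the second pair, is therefore not balanced across the step.

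Other genes of the pathway were taken from a list of 89, of which 71 were tested. At 500 against vehicle 5 rose and 2 fell with Menthae Herba, 2 rose with Saposhnikoviae Radix, none with Saengmaek-san, 7 rose with Guibi-tang, 14 with Soyo-san and 4 with Okbyeongpung-san, by edgeR at adjusted p under 0.05. The share of all genes called in either direction was 6.77%, 1.56%, 0.614%, 4.42%, 6.03% and 3.39% in the same order. With Saengmaek-san 4 of the 71 had an unadjusted p under 0.05, without a matching share of all genes, and DESeq2 called 0. No ligand or receptor gene was called except IFNGR2, a chain of the receptor of interferon gamma, which rose by 0.20 with Guibi-tang, and no feedback inhibitor was called at 500. The 2 that fell with Menthae Herba were JAK1 (-0.15) and TAPBP (-0.20), a chaperone that bridges TAP and class I molecules. Fits with 1 library left out are not given for JAK1 or IFNGR2. The TAPBP call (edgeR adjusted p = 0.0248) was lost without vehicle replicate 1 (0.0817) or 2 (0.107) or Menthae Herba 500 replicate 1 (0.0968) or 3 (0.178).

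HELZ2, a helicase coactivator, had 17.7, 14.4 and 15.5 CPM with Menthae Herba at 500 and 15.6, 14.4 and 14.2 CPM with Saposhnikoviae Radix, against 11.5, 10.99 and 11.3 CPM in vehicle. It rose by 0.45 and 0.34 (edgeR adjusted p = 0.000509 and 0.0282), and the second call was lost without any 1 of the 6 libraries (0.0618 to 0.194). PARP14, an ADP-ribosyltransferase, rose by 0.22 with Menthae Herba, 0.22 with Guibi-tang, 0.29 with Soyo-san and 0.20 with Okbyeongpung-san. For its Soyo-san call, fits with 1 library left out are not given. The PARP14 call was lost without vehicle replicate 2 in Menthae Herba (edgeR adjusted p = 0.058), Guibi-tang (0.07) and Okbyeongpung-san (0.142). In Menthae Herba it was also lost without the extract's 500 replicate 2 (0.0554). In Okbyeongpung-san it was lost as well without the filter (0.0621) and without vehicle replicate 1 (0.0748) or 3 (0.0585) or its own replicate 1 (0.16) or 2 (0.188). HERC6 rose by 0.28 with Menthae Herba (edgeR adjusted p = 0.015), lost without the filter on low counts (0.102) and without vehicle replicate 2 (0.145) or Menthae Herba 500 replicate 1 (0.0791) or 3 (0.0632). RFX5, a regulator of MHC promoters, rose by 0.15 with Saposhnikoviae Radix (0.0233), lost without the filter (0.347) and without any library but its own replicate 2 (0.0572 to 0.171).

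In the decoctions JAK2, the kinase beside JAK1 on the interferon gamma receptor, rose in Guibi-tang, Soyo-san and Okbyeongpung-san. It had 13.4, 13.9 and 15.4 CPM with Guibi-tang at 500 and 13.9, 13.9 and 13.96 CPM with Okbyeongpung-san, against 11.5, 11.6 and 11.98 CPM in vehicle. JAK2 rose by 0.26 and 0.27 (edgeR adjusted p = 0.0112 and 0.0137), and by 0.33 with Soyo-san (0.00099). The Guibi-tang and Okbyeongpung-san calls were lost without the filter (0.115 and 0.0822). With Guibi-tang it was 0.17 (0.196) without replicate 3, and the call was also lost without vehicle replicate 1 (0.055) or 2 (0.0529). With Okbyeongpung-san it was lost without those libraries (0.0661 and 0.0611) or without its own replicate 3 (0.0662). NMI, the partner of IFI35, rose by 0.44 with Soyo-san at 500 (edgeR adjusted p = 0.0004), at 9.76, 10.1 and 8.58 CPM against 7.30, 7.99 and 6.12 CPM in vehicle, and by 0.41 against 20. TRIM21 and IRF2 rose by 0.36 and 0.33 with Soyo-san, and with the step term they were 0.17 (adjusted p = 0.245) and 0.07 (0.718). The TRIM21 call was lost without vehicle replicate 2 (0.0546) or Soyo-san 500 replicate 1 (0.122), and the IRF2 call without vehicle replicate 2 (0.133) or 3 (0.235) or Soyo-san 500 replicate 1 (0.309) or 2 (0.0555). CALR, a chaperone of class I assembly, rose by 0.24 with Guibi-tang (edgeR adjusted p = 0.00412), or 0.17 (0.0944) without replicate 3, and by 0.19 with Okbyeongpung-san, or 0.01 (0.86) with the step term; the second call was lost without any 1 of the 6 libraries (0.0897 to 0.143). PLSCR1 rose by 0.21 with Okbyeongpung-san, or 0.06 (0.539) with the step term, and that call was lost without the filter (0.0822) and without any library but Okbyeongpung-san 500 replicate 1 (0.0603 to 0.227). SP100 rose by 0.23 with Guibi-tang (0.0484), and the call was lost in the fit with the replicate number as a block (0.0528), with the step term (0.0521), without the filter (0.11), and without vehicle replicate 2 (0.0923) or 3 (0.258) or Guibi-tang 500 replicate 1 (0.129) or 3 (0.26).

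**Figure D4:**
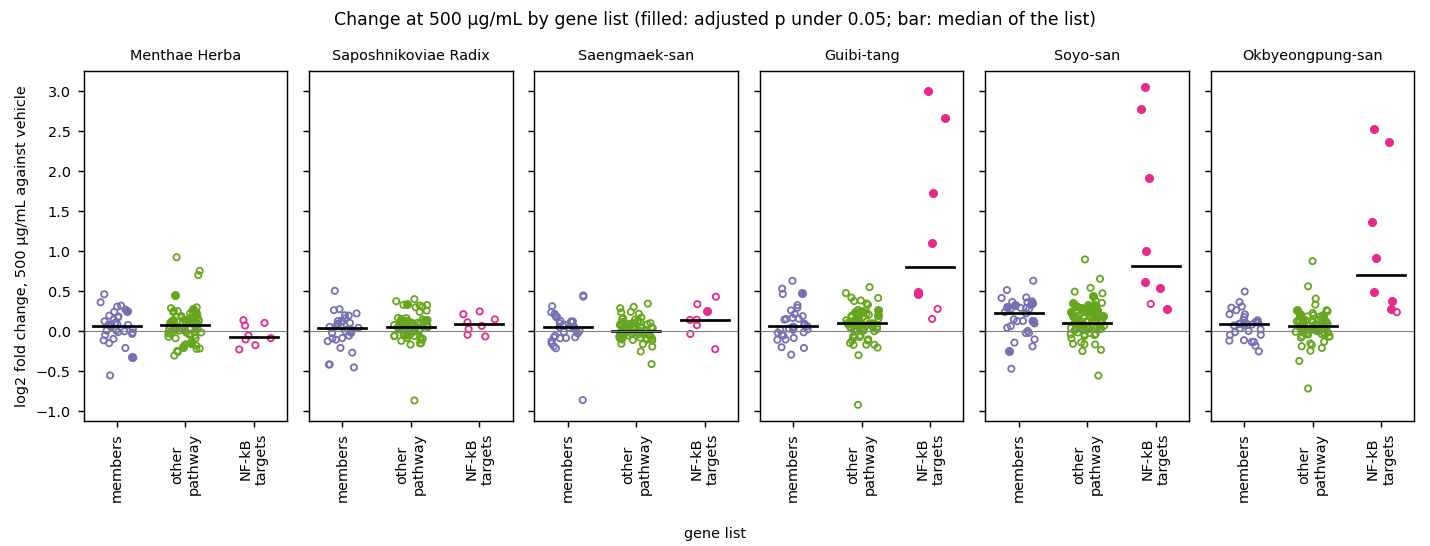
Log2 fold change at 500 µg/mL against vehicle (vertical axis) of the tested members, the other pathway genes and 8 NF-kB targets (horizontal axis) in 6 extracts, with called genes filled and list medians as bars. The member medians lie between 0.04 and 0.22, with single members between -0.86 and 0.63, while the NF-kB targets have medians of 0.80, 0.81 and 0.70 with Guibi-tang, Soyo-san and Okbyeongpung-san.

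The small changes of the members stood beside larger ones of some inflammatory genes, on a list chosen with earlier results of these data known. Of 8 NF-kB targets listed beside the pathway, 6 rose with Guibi-tang at 500, 7 with Soyo-san and 7 with Okbyeongpung-san. With Saengmaek-san 1 rose and with either herb none did (edgeR, adjusted p under 0.05 throughout). The shares of all genes called in either direction were 4.42%, 6.03%, 3.39% and 0.614% for these decoctions in that order. They were 6.77% for Menthae Herba and 1.56% for Saposhnikoviae Radix. With each herb 1 of 8 had an unadjusted p under 0.05, where DESeq2 called 0 with Menthae Herba and 1 with Saposhnikoviae Radix. The shares above are at adjusted p and do not match that count. The Soyo-san and Okbyeongpung-san comparisons span the step. CXCL1, a neutrophil chemokine, rose by 3.01 with Guibi-tang and CXCL8 by 2.67. Others on the list changed less. With Guibi-tang, Soyo-san and Okbyeongpung-san at 500, NFKB2 changed by 0.15, 0.28 and 0.28. RELB changed by 0.28, 0.34 and 0.24 in the same order and was not called against vehicle. The part of any of these in the changes of UBE2L6, IFI35 or PSMB8 was not tested.

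Soshiho-tang, with 1 library per dose, allows no test. Of the 19 members at 5 CPM or more, 4 lay above the vehicle range in both the 500 and 100 libraries and 5 below it, against 17.2% and 29.3% of 10897 genes at that level. PARP9 spanned 10.5 to 11.2 CPM in vehicle libraries and had 10.5, 11.9 and 13.1 CPM at 20, 100 and 500 µg/mL. ISG20 spanned 10.0 to 10.3 CPM in vehicle libraries and had 10.4, 9.92 and 7.73 CPM at those doses, below that range at the upper doses. IFI35 spanned 5.82 to 6.94 CPM in vehicle and had 6.77, 7.49 and 7.43 CPM, above it at the upper doses. The IFI35 medians of all libraries on either side of the step were also above that range. IRF9 spanned 7.70 to 8.74 CPM in vehicle and had 7.84, 6.94 and 6.69 CPM, below it at the upper doses. These libraries all came after the step and vehicle before it.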

How the data were processed

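RNA of A549 cells was sequenced in 60 libraries. Per the submitters' processing notes, reads were handled with FastQC 0.11.9, Trim Galore 0.6.5, STAR 2.7.3a and RSEM 1.3.3 on hg38. The table deposited by the authors holds expected counts of RSEM for 60675 genes, of which 10.49% of the values were not whole and were rounded here. The annotation release and strand setting are not given in the sources used here, and 0 columns belonged to no sample. Depth was 18330592 to 35308791 counts per library, and no 2 replicates agreed within sampling noise (chi-square per degree of freedom 1.87 to 73.2 over 57 pairs). Groups came from the labels. The 57 libraries of 19 groups of 3 were fitted together in edgeR 4.0.16 (R 4.3.3) with TMM scaling, filterByExpr (count minimum 10) and group means, and p-values were adjusted by Benjamini-Hochberg over 17256 genes. The script was tested on simulated data. CPM were computed on library totals, so CPM ratios can differ from fold changes.

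Members and lists were chosen with earlier results of these data known. Named members were up to 4 called per comparison by absolute log2 fold change with 1 CPM or more in either group, and likewise up to 4 pathway genes at 500 against vehicle; IFIT1 was always named. For Soshiho-tang, up to 4 members of 5 CPM or more were named by their log2 ratio at 500 where the 500 and 100 libraries lay on the same side of the vehicle range. Other members and pathway genes with values in the text were chosen after their values were seen. Alternatives were DESeq2 1.42.0, no filter, each library left out, the replicate number as a block, a term for the step in library order, and libraries on 1 side of it. Gene positions are those of GENCODE on GRCh38, and promoter windows were read from RefSeq's GRCh38.p14. Of the pathway genes and promoter stretches, 1 each is not reported here.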

Additional observations from a re-analysis of the deposited data

Results flagged for a closer look

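With 1 library a dose and so no test, PARP9 had 13.07 CPM and IFI35 had 7.426 CPM in the Soshiho-tang 500 library, both above the highest of the 3 vehicle libraries (11.2 and 6.94 CPM). These libraries enter no test, and all 3 lie after the step in library order while the vehicle libraries lie before it, so extract and step cannot be told apart for them.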

How the results depend on the processing

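Over the alternatives run, none of the 30 called fold changes of named genes changed sign. Of uncalled ones, the step term turned B2M to -0.1704 with Soyo-san and -0.2502 with Okbyeongpung-san at 500 against vehicle, and UBE2L6 with Saengmaek-san to -0.03252, which was -0.01238 with libraries before the step and -0.03095 to 0.03959 with 1 library left out. IFIT1, near 0, changed sign in 10 of 12 comparisons. At 500 against vehicle it was 0.0006679 with Saposhnikoviae Radix and -0.02274 with Saengmaek-san with libraries before the step, and -1.895e-05 with Okbyeongpung-san without a filter. With 1 library left out it ranged over -0.1815 to 0.2243 for Menthae Herba, -0.2008 to 0.2376 for Saposhnikoviae Radix, -0.1592 to 0.2457 for Saengmaek-san, -0.09131 to 0.3135 for Guibi-tang, -0.03795 to 0.3668 for Soyo-san and -0.1661 to 0.2386 for Okbyeongpung-san. Against 20 it ranged over -0.01448 to 0.3502 for Menthae Herba, -0.1869 to 0.265 for Saposhnikoviae Radix, -0.007042 to 0.138 for Saengmaek-san and -0.2962 to 0.1113 for Okbyeongpung-san. With no filter, 12 of the calls of named genes were lost. Counts of members called with no filter on low counts were 1 for Menthae Herba 500, 1 for Saposhnikoviae Radix 500, 2 for Saposhnikoviae Radix 20, 1 for Guibi-tang 20 and 1 for Okbyeongpung-san 20, each against vehicle. With libraries before the step alone they were 4 for Menthae Herba 500, 2 for Saposhnikoviae Radix 500, 2 for Guibi-tang 500, 1 for Menthae Herba 100 and 2 for Saposhnikoviae Radix 20. With the step term they were 3 for Okbyeongpung-san 500, 2 for Soyo-san 100, 4 for Okbyeongpung-san 100, 1 for Saposhnikoviae Radix 20, 2 for Soyo-san 20 and 2 for Okbyeongpung-san 20 against vehicle, and 2 for Soyo-san 500 against 20. When each library was left out in turn, counts ranged over 0 to 2 for Menthae Herba 500, 0 to 1 for Guibi-tang 500, 1 to 3 for Soyo-san 500 and 0 to 1 for Okbyeongpung-san 20 against vehicle, and over 1 to 2 for Menthae Herba and 0 to 1 for Soyo-san at 500 against 20. The cause of these moves was not tested. DESeq2 moved no count of members by over 1.5 times. Of the 71 pathway genes, DESeq2 called 12 higher with Guibi-tang at 500 against vehicle. The step term called 15 higher with Guibi-tang, 8 with Okbyeongpung-san, 4 with Saposhnikoviae Radix and 8 with Menthae Herba, where 5 were lower. Of all genes, the fit with that term called 12.5% with Okbyeongpung-san at 500, against 3.39% without it. Without a filter, of 86 genes, 3 rose with Guibi-tang, 3 with Menthae Herba, 1 with Saposhnikoviae Radix and 1 with Saengmaek-san. With libraries before the step, of 72 genes, 11 rose and 5 fell with Menthae Herba, and 4 rose and 2 fell with Saposhnikoviae Radix. With Guibi-tang 15 rose and with Saengmaek-san 1. Beside these stood 15.8% of all genes with Menthae Herba and 11.2% with Guibi-tang, against 6.77% and 4.42% over all libraries. For the other alternative counts in this paragraph, the share of all genes is not given here. No gain or loss of these genes is therefore read from them. In most comparisons replicate numbers did not pair the libraries: correlations of same-numbered libraries ran from -0.195 to 0.345. Every pair was over 0.1 in 1 of 24 comparisons, Saengmaek-san 500 against 20 (0.117 to 0.345). A replicate block gave the same count of members within 1.5 times in all 27 comparisons, with 2 for Menthae Herba and 6 for Soyo-san at 500 against vehicle, where PSMB9 was added. Depth limits low genes most: the median half-width of the 95% interval was 0.08 log2 units for OAS3 and 0.82 for OASL.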
